A study of Caenorhabditis elegans with 17 samples.

Results

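Messenger RNA of whole day 1 adult Caenorhabditis elegans was compared between animals fed bacteria making double-stranded RNA against ash-2 and hsf-1 together (ash-2 + hsf-1, 4 libraries) and animals fed bacteria carrying the empty feeding vector L4440 (5 libraries). These 9 libraries were taken by their labels from a series of 17, whose other 8 came from animals on the ash-2 clone alone (4) or the hsf-1 clone alone (4). All animals of all 4 groups, L4440 included, carried rmIs133, a transgene in which the muscle myosin promoter unc-54p drives a polyglutamine stretch fused to a yellow fluorescent protein (Q40::YFP). Eggs were laid on the RNAi bacteria, Escherichia coli HT115 (DE3), and the animals were collected after 96 h at 20 °C. The parents of ash-2 + hsf-1 animals, like those of ash-2 animals, had themselves lived on ash-2 RNAi since the egg, which is not stated for the parents of L4440 or hsf-1 animals. The change between ash-2 + hsf-1 and L4440 therefore holds the treatment of the parents as well as that of the animals, and these cannot be told apart. Each library came from a pellet of many animals, and the labels call the libraries biological replicates.

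The protein ASH-2 is a core subunit of the complexes that add methyl groups to lysine 4 of histone H3, a mark found at the starts of active genes. HSF-1 is the heat shock transcription factor, which drives the genes of chaperones after heat and, in C. elegans, also during growth and reproduction at normal temperature. Loss of either has been studied in worms for its effect on stress resistance, fat storage and lifespan, and polyglutamine proteins that clump in muscle are a common readout of protein folding in this animal.

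Levels are given as FPKM, fragment counts scaled to transcript length and to the size of the library, and values per library are listed in the order of replicates 1 to 4 of ash-2 + hsf-1 and 1 to 5 of L4440. The files list 26786 genes, and 13084 were tested, those that reached 1 FPKM in 4 or more of the 17 libraries. Changes are differences of log2(FPKM + 0.5), ash-2 + hsf-1 minus L4440 unless another pair is named, with their standard error (SE). They understate the changes of genes at low levels. A gene is said to have risen, fallen or been called where limma's p, adjusted by Benjamini-Hochberg over all genes tested, was under 0.05.

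Low FPKM values implied about 16.3 to 19.4 M fragments per library, an estimate made within a fixed window and so a weak measure of differences in depth. The number of genes at an FPKM of at least 1 was 11877, 12712, 10591 and 11556 in ash-2 + hsf-1 and 12217, 12664, 11589, 11768 and 11459 in L4440. The ash-2 + hsf-1 libraries varied more among themselves than the L4440 libraries, with a median SD over genes of 0.481 and 0.232 on the log2 scale. Replicate 3 of ash-2 + hsf-1 had the fewest detected genes of the 9 libraries. Replicate 4 had the highest summed FPKM of all 17, at 925181 against 722914 to 879309 in the rest, and its 10 highest genes took 11.01% of that sum. The median gene stood at 0.07, 0.27, -0.27 and -0.37 (log2) relative to the mean of L4440 in ash-2 + hsf-1 replicates 1 to 4. For list counts above 3 that moved by over 1.5 times without replicate 3, replicate 4 or both, the count without them is therefore given beside. In the single-clone groups, ash-2 replicates 1 and 3 had 9401 and 9817 detected genes and medians of -0.792 and -0.534. For hsf-1 replicate 4 these were 10745 and -0.561. With ash-2 + hsf-1 replicate 3 they are the 4 libraries with few detected genes. Counts against the single clones include them and are not given without them. Transcripts of the tissues of an adult hermaphrodite were present in both groups. Yolk protein vit-2 averaged 2171 FPKM in ash-2 + hsf-1 and 3479 FPKM in L4440, muscle myosin unc-54 331 and 313 FPKM, the eggshell gene cpg-2 1524 and 1346 FPKM, and the sperm gene msp-77 77.3 and 116 FPKM.

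The 2 transcripts aimed at by the clones are given first. That of ash-2 (chromosome II, 11979838 to 11989050, WBcel235) was at 7.85, 11.6, 3.92 and 10.6 FPKM in ash-2 + hsf-1 libraries, against 17.2, 19.1, 15.2, 16.2 and 14.1 FPKM in L4440 libraries. The hsf-1 transcript (chromosome I, 11953509 to 11961984) was at 9.78, 11.5, 6.05 and 11.7 FPKM in ash-2 + hsf-1 and at 31.3, 33.8, 27.7, 30.0 and 26.5 FPKM in L4440. For each target all 4 libraries on both clones lay below all 5 on the empty vector, with the lowest value in replicate 3. The means were 8.47 ± 3.42 and 16.4 ± 1.89 FPKM for ash-2, or 51.7% of L4440, and 9.74 ± 2.60 and 29.9 ± 2.92 FPKM for hsf-1, or 32.6% of L4440 (SD, n = 4 and 5). An exact two-sided permutation test over all arrangements of the 9 libraries gave p = 0.0079 for each, the smallest it can give. In limma's test, which pools the spread over all groups, hsf-1 fell by 1.60 ± 0.29 (adjusted p = 0.00167), while the change of ash-2 was -1.01 ± 0.43 and was not called (adjusted p = 0.203). Fragments of the fed RNA itself could add to these values, and their part was not tested.

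**Figure D1:**
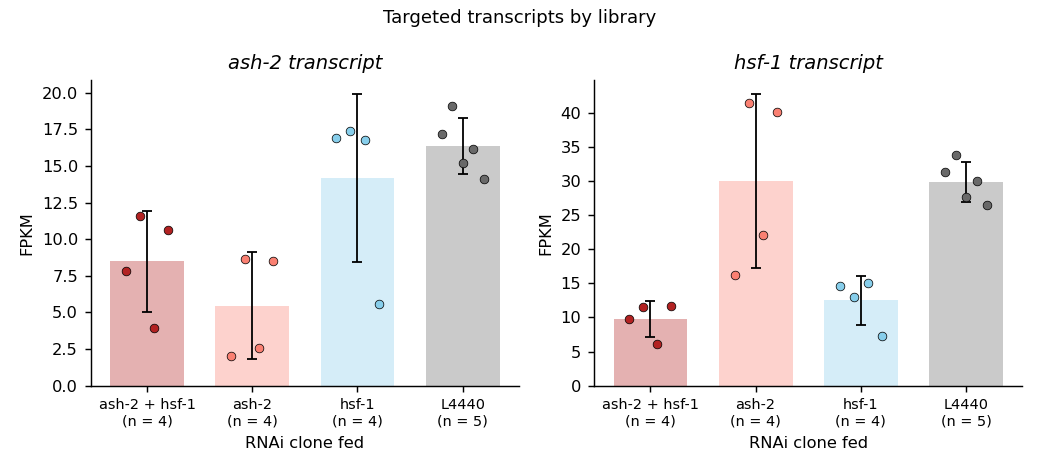
FPKM of the ash-2 (left) and hsf-1 (right) transcripts in each library of the 4 groups; points are libraries, bars are means and error bars are 1 SD. On both clones ash-2 lies between 3.92 and 11.6 FPKM and hsf-1 between 6.05 and 11.7 FPKM, below every L4440 library.

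Partners of the targets showed no calls of their own. Of 20 genes of the lysine 4 methylation machinery and the enzymes that remove the mark, 0 were called in either direction, with a median change of -0.04, where over all genes tested 3.68% were called higher and 5.40% lower and the median was -0.07. At an unadjusted level, libraries did not overlap between the groups for 3 of the 20, where over all genes tested it was 12.6%. Beside ash-2 these were the complex subunits dpy-30 and wdr-5.2. They were at 221 and 4.45 FPKM in ash-2 + hsf-1 and at 171 and 3.13 FPKM in L4440 (changes of 0.33 and 0.46, adjusted p = 0.192 and 0.203), and the dpy-30 value of replicate 4, 318 FPKM, stood far above the other 3. Among 7 genes of heat shock factor and its regulators, hsf-1 itself was the only one called.

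Over all genes tested, 482 were called higher and 706 lower in ash-2 + hsf-1, so that 59.4% of the 1188 calls (9.08% of genes tested) were lower. Without ash-2 + hsf-1 replicates 3 and 4 there were 411 higher and 272 lower, so that 39.8% were lower. Of the 1188 calls with all libraries in the fit, 744 had changed by at least 1 on the log2 scale and 164 by at least 2. For 1655 genes (12.6% of those tested) every library of one group lay above every library of the other, 685 of them higher (5.24%) and 970 lower (7.41%), and 1085 of the called genes were among them.

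The 10 genes with the largest rises included the lectin genes clec-60 and clec-86 and the pathogen response genes eol-1, pals-4 and pals-39, beside genes of other kinds. The C-type lectin gene clec-60, which codes for a secreted sugar-binding protein of the intestine, was at 222, 259, 413 and 459 FPKM in ash-2 + hsf-1, against 2.71, 4.69, 3.71, 3.82 and 6.70 FPKM in L4440. This was the largest rise by the rule used to name genes, 6.12 ± 0.27 (adjusted p = 9.5e-10), and the 2 groups lay far apart. A second lectin gene, clec-86, was at 26.3, 28.9, 52.7 and 158 FPKM in ash-2 + hsf-1 and at 0.849, 1.44, 1.38, 1.48 and 1.34 FPKM in L4440, a rise of 4.83 ± 0.39 in which replicate 4 stood highest. The aspartyl protease gene asp-17 was at 43.8, 45.8, 60.3 and 23.1 FPKM in ash-2 + hsf-1 and at 0.493, 0.411, 1.19, 0.540 and 1.70 FPKM in L4440 (5.01 ± 0.30, adjusted p = 2.79e-08). The tetraspanin gene tsp-2, of a family of membrane proteins, rose by 4.20 ± 0.28, with 11.2 to 24.7 FPKM in ash-2 + hsf-1 and 0.238 to 0.881 FPKM in L4440. The rise of the F-box gene fbxa-163 was 3.31 ± 0.41, and that of ddn-1 was 3.76 ± 0.62, with 6.11 to 78.4 FPKM in ash-2 + hsf-1 and 0.886 to 2.04 FPKM in L4440.

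The 10 genes with the largest falls included the lysozyme genes ilys-3 and ilys-5, the lectin genes clec-10 and clec-52 and the protease gene cpr-1, beside genes of other kinds. The invertebrate lysozyme gene ilys-3, whose product breaks bacterial cell walls, was at 14.3, 12.2, 19.7 and 5.93 FPKM in ash-2 + hsf-1, against 108, 97.2, 113, 120 and 53.9 FPKM in L4440 (-2.93 ± 0.29, adjusted p = 4.84e-06). Its relative ilys-5 averaged 30.6 ± 13.4 FPKM in ash-2 + hsf-1 and 182 ± 25.8 FPKM in L4440. The secreted scl-2, of the SCP family of extracellular proteins, was at 9.49, 10.7, 15.0 and 6.56 FPKM in ash-2 + hsf-1 and at 102, 102, 99.7, 101 and 52.3 FPKM in L4440 (-3.08 ± 0.24). In all of these replicate 5 was the lowest of the L4440 libraries. That the groups did not overlap was a condition of the selection. The lectin genes clec-10 and clec-52 fell by 2.75 ± 0.36 and 2.67 ± 0.41, ora-1 by 2.54 ± 0.26, the ammonium transporter gene amt-4 by 2.39 ± 0.38, the cytochrome P450 gene cyp-14A5 by 2.39 ± 0.49 and nspe-7, of a nematode-specific peptide family, by 3.34 ± 0.38. The level of nspe-7 was 0.0992 to 2.12 FPKM in ash-2 + hsf-1 and 6.49 to 13.8 FPKM in L4440.

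**Figure D2:**
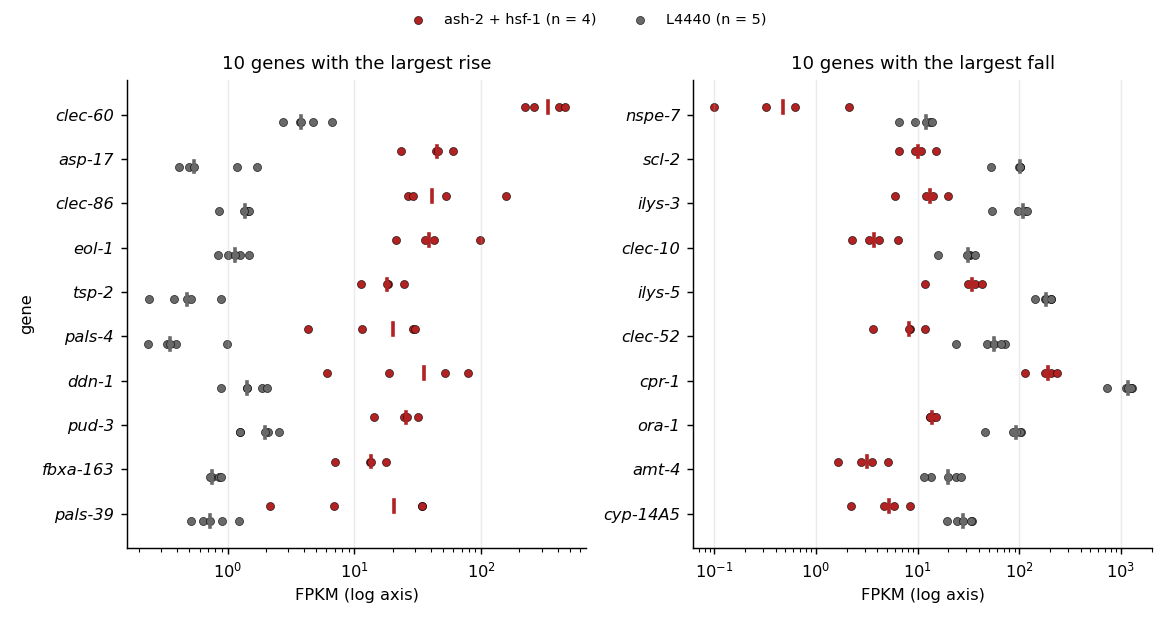
FPKM per library, on a log axis, of the 10 genes with the largest rise (left) and the 10 with the largest fall (right) among called genes with a symbol, a mean of at least 10 FPKM in the higher group and no overlap; points are libraries and ticks are group medians. The pals-4 and ddn-1 values on both clones run from 4.33 to 30.2 and from 6.11 to 78.4 FPKM, a wider spread than that of clec-60, 222 to 459 FPKM.

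The intracellular pathogen response is a program that worms switch on when microsporidia or a virus enter intestinal cells. Its genes rose in larger part than those of any other of the 39 lists examined. This rank is not a test, since lists and members were chosen with earlier results of these data known. Of 41 tested genes of the response, 17 were called higher and 0 lower, with changes of 1.51 to 4.71 among those called and a median over the list of 1.09. The gene eol-1, related to mammalian RNA decapping enzymes, was at 35.8, 98.4, 21.1 and 42.2 FPKM in ash-2 + hsf-1, against 1.01, 1.25, 0.833, 1.15 and 1.47 FPKM in L4440 (4.71 ± 0.57, adjusted p = 3.83e-05). The family member pals-4 was at 11.4, 29.1, 4.33 and 30.2 FPKM in ash-2 + hsf-1 and at 0.330, 0.391, 0.234, 0.349 and 0.993 FPKM in L4440 (4.03 ± 0.48). Replicate 3 was the lowest ash-2 + hsf-1 library in each. The gene pals-39 had 6.85, 34.1, 2.17 and 34.1 FPKM in ash-2 + hsf-1 and 0.517 to 1.23 FPKM in L4440 (3.27 ± 0.64). The reporter gene pals-5, named after its values were seen, had 1.88, 9.43, 0.397 and 7.66 FPKM in ash-2 + hsf-1 and 0.208 to 0.679 FPKM in L4440. The libraries of pals-5 thus overlapped (1.93 ± 0.55, adjusted p = 0.0357), and its call was lost in 11 of the alternatives tried. The Skp1-related gene skr-4, a ubiquitin ligase subunit, was more even, at 45.3, 51.8, 50.5 and 41.1 FPKM in ash-2 + hsf-1 and 16.9, 19.8, 10.8, 18.2 and 16.6 FPKM in L4440 (1.51 ± 0.21, adjusted p = 0.000133).

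The mean of the 41 pathogen response genes, relative to L4440, was 1.00, 2.20, 0.24 and 1.70 in ash-2 + hsf-1 replicates 1 to 4, and -0.16 to 0.32 in L4440 replicates. It was thus high in replicates 1, 2 and 4, while replicate 3 lay within the L4440 range. Without replicate 3, 21 members were called higher, without replicate 4 it was 12 and without replicate 2 also 12. Against ash-2 RNAi alone, 29 of the 41 were higher in ash-2 + hsf-1 and 0 lower (12.0% and 3.76% of all genes tested in that comparison), and the median difference was 1.69. Against hsf-1 RNAi alone, 0 were called in either direction (1.28% higher and 8.42% lower of all genes tested), with a median difference of -0.21. Genes of the F-box A and MATH domain families, substrate adaptors of ubiquitin ligases, had 16 of 127 members higher and 1 lower, with a median of 0.18. The gene fbxa-158 was at 5.61, 9.03, 5.38 and 20.0 FPKM in ash-2 + hsf-1 and at 0.644 to 1.08 FPKM in L4440 (2.79 ± 0.31). This list was sensitive to the libraries used: leaving out the 4 of the 17 libraries with few detected genes, ash-2 + hsf-1 replicate 3 among them, gave 42 higher, and leaving out replicate 3 alone gave 24.

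Heat shock and chaperone genes, the classical outputs of HSF-1, did not move as a single block. Among 9 heat-inducible genes, 2 were called lower and 0 higher, with a median of -0.88. The small heat shock gene hsp-16.48 was at 1.71, 5.36, 1.19 and 14.5 FPKM in ash-2 + hsf-1, against 19.2, 15.8, 12.2, 11.2 and 15.2 FPKM in L4440. Replicate 4 lay within the L4440 range and the other 3 below it (-1.81 ± 0.50, adjusted p = 0.0307). The Hsp70 gene F44E5.4 was at 5.30, 6.86, 2.04 and 2.48 FPKM in ash-2 + hsf-1 and at 50.3, 29.0, 11.3, 10.5 and 16.7 FPKM in L4440 (-2.25 ± 0.68, adjusted p = 0.0486). Its near-identical neighbour F44E5.5 had almost the same values (-2.16 ± 0.68, adjusted p = 0.0569), and these genes share reads. Both calls are weak, since that of hsp-16.48 was lost in 7 of the alternatives and that of F44E5.4 in 12, and without ash-2 + hsf-1 replicate 1 or replicate 3 the list had 0 calls. The hsp-16 genes also lie in near-identical pairs, so a value stands partly for its twin. The other members lay between -1.38 (hsp-16.49, adjusted p = 0.199) and -0.32 (hsp-70, adjusted p = 0.881).

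By contrast, 2 of 7 other small heat shock genes rose and 0 fell. The gene hsp-17 was at 44.6, 60.9, 46.4 and 86.5 FPKM in ash-2 + hsf-1 and at 20.2, 23.7, 18.4, 21.0 and 17 FPKM in L4440 (1.50 ± 0.21, adjusted p = 0.000168). The gene hsp-25 was at 201, 170, 215 and 335 FPKM in ash-2 + hsf-1 and at 142, 123, 139, 133 and 132 FPKM in L4440 (0.74 ± 0.16, adjusted p = 0.00646). Neither pair of groups overlapped.

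Among cytosolic chaperones made at normal temperature the calls were all falls. Of 30 members 5 fell and 0 rose, with a median of -0.37. The most abundant of the 5, the Hsc70 gene hsp-1 (named, like cct-2, after its values were seen), was at 1536, 1349, 1484 and 1176 FPKM in ash-2 + hsf-1 and at 2166, 1825, 2226, 2016 and 2266 FPKM in L4440 (-0.60 ± 0.18, adjusted p = 0.0481). The Hsp90 gene hsp-90 was at 958, 972, 1065 and 449 FPKM in ash-2 + hsf-1 and at 1491, 1316, 1614, 1428 and 1863 FPKM in L4440 (-0.91 ± 0.22, adjusted p = 0.0150). Replicate 4 was the lowest for each. The co-chaperone genes dnj-13 and sti-1 averaged 94.0 ± 1.73 and 132 ± 11.6 FPKM in ash-2 + hsf-1 and 148 ± 14.0 and 201 ± 19.6 FPKM in L4440 (-0.64 ± 0.16 and -0.60 ± 0.18), and the chaperonin subunit gene cct-2 averaged 163 ± 23.6 and 209 ± 5.36 FPKM (-0.37 ± 0.11). Without ash-2 + hsf-1 replicate 4 the count of members that fell was 2, without replicate 3 it was 3, without both 0 and after rescaling by median ratios 1. The groups did not overlap for 9 of the 30, where over all genes tested it was 12.6%. The calls of hsp-1, cct-2 and sti-1 were lost in 16, 14 and 14 of the alternatives. Set against ash-2 RNAi alone, 11 of the 30 were lower in ash-2 + hsf-1 and 0 higher (3.76% and 12.0% of all genes tested). Against hsf-1 RNAi alone 0 were called (8.42% lower and 1.28% higher of all genes tested). In the endoplasmic reticulum list, 1 of 18 genes was called, a fall (5.56%, near the 5.40% of all genes tested). It was the BiP-like chaperone gene hsp-3, at 295, 311, 289 and 95.6 FPKM in ash-2 + hsf-1 and 384 to 467 FPKM in L4440 (-0.88 ± 0.25, adjusted p = 0.0372), with replicate 4 far below the other 3. The call of hsp-3 was lost in 9 of the alternatives, among them leaving out any 1 of the L4440 libraries. The mitochondrial stress and proteasome lists had 0 calls among 12 and 33 genes, with medians of -0.21 and 0.00.

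**Figure D3:**
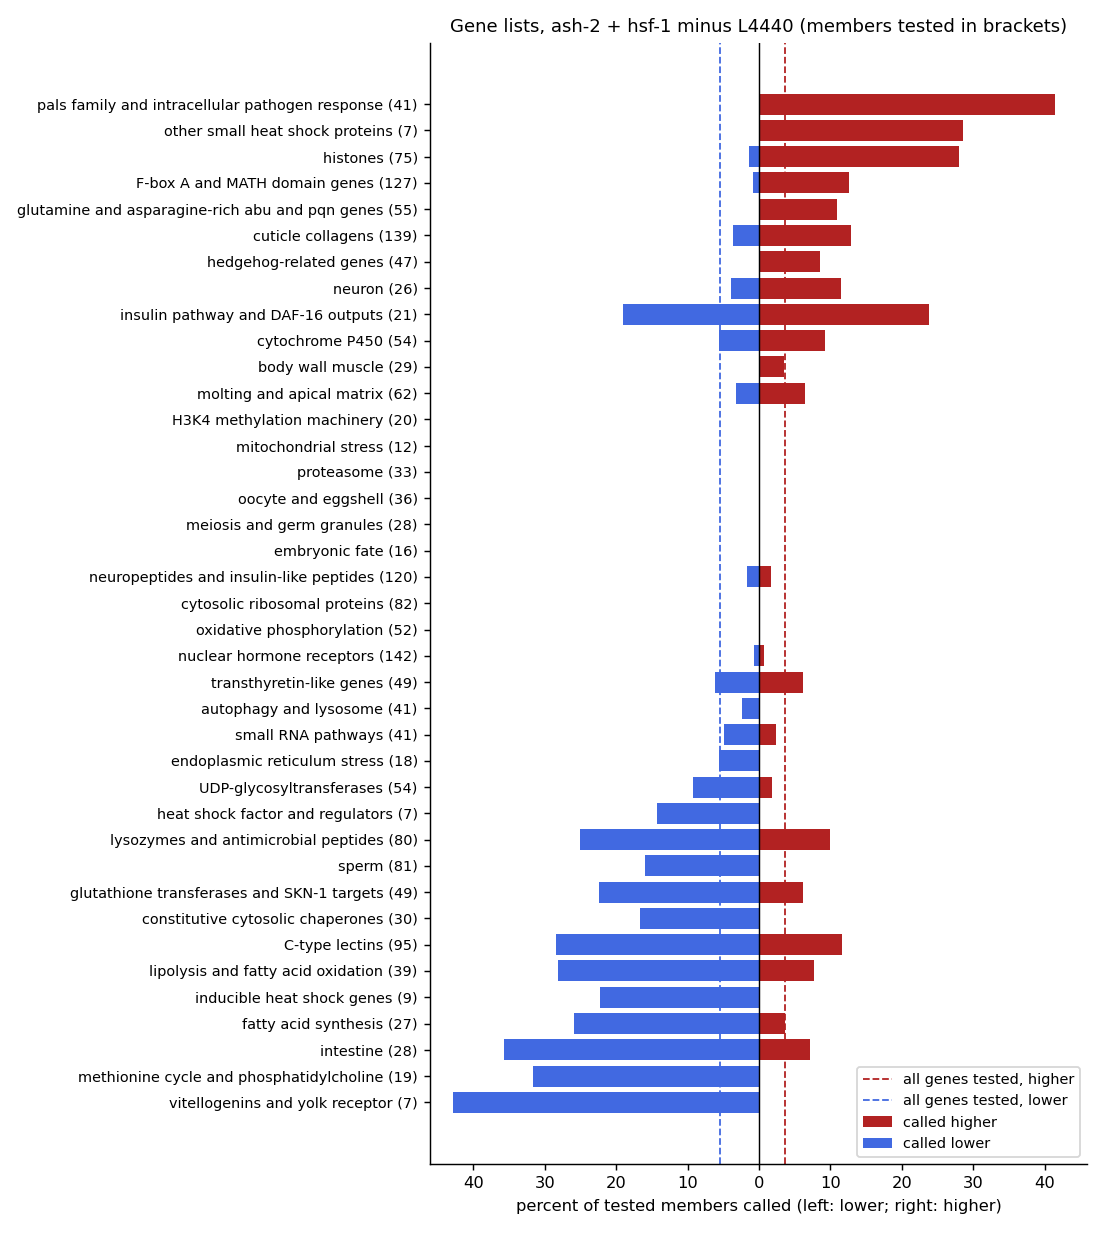
Percent of the tested members of each of 39 gene lists called lower (left of 0) or higher (right of 0) in ash-2 + hsf-1 relative to L4440; dashed lines mark the 3.68% and 5.40% of all genes tested that were called higher and lower. The pathogen response, histone and small heat shock lists reach furthest to the right, the vitellogenin, intestine and methionine cycle lists furthest to the left.

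Yolk genes, which the intestine expresses to feed the oocytes, were called lower in part. Of 7 tested genes, the vitellogenins and their oocyte receptor gene rme-2, 3 fell and 0 rose, with a median of -0.95. The gene vit-1 was at 141, 124, 137 and 54.3 FPKM in ash-2 + hsf-1, against 368, 382, 368, 344 and 642 FPKM in L4440 (-1.93 ± 0.25, adjusted p = 8.13e-05). For vit-4 the values were 520, 510, 686 and 144 FPKM in ash-2 + hsf-1 and 835, 835, 1002, 863 and 1221 FPKM in L4440 (-1.22 ± 0.32, adjusted p = 0.0241), and vit-3 fell by 1.15 ± 0.32. The calls of vit-4 and vit-3 were lost in 5 and 10 of the alternatives, that of vit-3 among them on leaving out any 1 of the L4440 libraries. In these 3 genes every ash-2 + hsf-1 library lay below every L4440 library and replicate 4 was lowest by far. The most abundant yolk gene, vit-2, had 2521, 2422, 3063 and 680 FPKM in ash-2 + hsf-1 and 3326, 3154, 3930, 3507 and 3475 FPKM in L4440. Its groups did not overlap either, but its change was not called (-0.88 ± 0.30, adjusted p = 0.0911). The mean of the list relative to L4440 was -0.69, -0.73, -0.41 and -2.39 in ash-2 + hsf-1 replicates 1 to 4. Without replicate 4 the median was -0.45 and 4 members fell. Without replicate 3, 5 fell, and 1 fell without L4440 replicate 3 or after rescaling by median ratios. Vitellogenin genes are near copies of each other and share reads. All 7 genes were lower in ash-2 + hsf-1 than with ash-2 RNAi alone (3.76% of all genes tested), with a median difference of -1.33. Against hsf-1 RNAi alone 0 were called (1.28% higher and 8.42% lower of all genes tested), with a median of 0.51. In RNA of whole animals, fewer cells of a type and less RNA per cell cannot be told apart, here and in the tissue lists that follow.

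Digestive proteases made up most of the intestine genes that fell. Of 28 intestine genes, 10 fell and 2 rose, with a median of -0.27, and the count of falls stayed at 10 whichever of the 9 libraries was left out. Of the 10, 9 were proteases: the aspartyl protease genes asp-1, asp-2, asp-3, asp-5 and asp-6 and the cathepsin B-like genes cpr-1, cpr-4, cpr-5 and cpr-6. Such proteases were put on the list by choice, so their share of its falls follows in part from its make-up. The aspartyl protease gene asp-17, not among these 28, rose by 5.01 ± 0.30. The gene cpr-1 was at 204, 178, 237 and 114 FPKM in ash-2 + hsf-1, against 1122, 1184, 1271, 1243 and 736 FPKM in L4440 (-2.62 ± 0.19, adjusted p = 2.14e-07). For asp-1 the values were 594, 433, 850 and 777 FPKM in ash-2 + hsf-1 and 3007, 2808, 3652, 3351 and 2333 FPKM in L4440 (-2.22 ± 0.21, adjusted p = 3.34e-06). The other 7 proteases fell by 0.84 (cpr-5) to 1.72 (asp-6), for example asp-2 by 1.49 ± 0.18 and cpr-6 by 1.67 ± 0.21. In none of the 9 did the groups overlap, and the remaining fall was that of acdh-1, described with the fat breakdown genes. The 2 that rose were the intestinal filament gene ifb-2, at 140 to 162 FPKM in ash-2 + hsf-1 and 88.1 to 104 FPKM in L4440 (0.68 ± 0.14), and the cathepsin B-like protease gene cpr-3 (0.96 ± 0.29, adjusted p = 0.0453), whose call was lost on leaving out any 1 of the 9 libraries. The transcription factor gene elt-2, which marks intestinal cells, was at 16.7, 22.0, 7.22 and 22.3 FPKM in ash-2 + hsf-1 and 7.23, 8.83, 4.39, 6.73 and 5.84 FPKM in L4440 and was not called (1.22 ± 0.42, adjusted p = 0.0878). The esterase gene ges-1, another intestinal marker, averaged 5.51 ± 2.34 FPKM in ash-2 + hsf-1 and 9.84 ± 1.40 FPKM in L4440 and was not called either (-0.88 ± 0.31, adjusted p = 0.101). The vacuolar proton pump subunit gene vha-6, made in the intestine, fell by 0.75 ± 0.16 and was the only call among 41 autophagy and lysosome genes (2.44%, below the 5.40% of all genes tested). These genes were named in full after their values were seen.

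Secreted immune genes moved in both directions, more of them down. Of 80 lysozyme and antimicrobial peptide genes, 20 fell and 8 rose (median -0.41), and of 95 C-type lectin genes 27 fell and 11 rose (median -0.26). Among lysozymes, lys-4 was at 29.1, 27.6, 26.3 and 13.6 FPKM in ash-2 + hsf-1 and at 82.5, 101, 95.7, 90.5 and 73.0 FPKM in L4440 (-1.90 ± 0.18, adjusted p = 4.29e-06). The genes lys-1, lys-7 and lys-8 and the saposin-like spp-5 also fell, by 1.52 ± 0.27, 1.36 ± 0.36, 1.34 ± 0.25 and 1.42 ± 0.22. These are named as examples chosen after their values were seen. The list also holds dod genes, a class named as downstream of DAF-16, from which the examples in the other direction come. The gene dod-19 was at 232, 234, 338 and 228 FPKM in ash-2 + hsf-1 and at 87.9, 87.6, 108, 112 and 96.7 FPKM in L4440 (1.38 ± 0.12, adjusted p = 2.11e-06). The gene dod-20 was at 2.73 to 6.52 FPKM in ash-2 + hsf-1 and 0.0629 to 0.223 FPKM in L4440 (3.08 ± 0.23). The groups of lys-4, dod-19 and dod-20 did not overlap. Leaving out 1 of the 9 libraries kept the falls at 17 to 21 and the rises at 7 to 10 for lysozymes and peptides, and at 18 to 25 and 11 to 14 for lectins, whose falls numbered 16 without ash-2 + hsf-1 replicates 3 and 4. The lectin gene clec-43, among the lowest, was at 0.0998 to 0.514 FPKM in ash-2 + hsf-1 and 3.82 to 7.40 FPKM in L4440 (-2.90 ± 0.23).

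Fat metabolism genes were mostly lower where they changed. Of 27 genes of fatty acid synthesis 7 fell and 1 rose, with a median of -0.47. The stearoyl-CoA desaturase gene fat-6 was at 81.5, 69.5, 55.1 and 48.2 FPKM in ash-2 + hsf-1, against 124, 151, 183, 167 and 233 FPKM in L4440 (-1.42 ± 0.21, adjusted p = 0.000297). The elongase gene elo-2 was at 87.0, 65.5, 65.2 and 79.7 FPKM in ash-2 + hsf-1 and at 140, 164, 159, 164 and 189 FPKM in L4440 (-1.13 ± 0.12, adjusted p = 1.26e-05). The keto-reductase gene let-767 fell by 0.64 ± 0.12. The 1 gene that rose was the palmitoyl-CoA desaturase gene fat-5, at 38.6, 37.9, 25.8 and 17 FPKM in ash-2 + hsf-1 and 11.5, 14.4, 12.1, 13.3 and 15.9 FPKM in L4440 (1.06 ± 0.25, adjusted p = 0.0108). Its groups did not overlap, though replicate 4 came close to the L4440 range. The falls of the list numbered 5 without replicate 3, 5 without replicate 4 and 3 without both.

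Of 39 genes of fat breakdown, 11 fell and 3 rose, with a median of -0.40. The lysosomal lipase gene lipl-5 was at 13.9, 12.0, 15.1 and 11.1 FPKM in ash-2 + hsf-1 and at 65.7, 68.6, 65.6, 71.3 and 60.5 FPKM in L4440 (-2.31 ± 0.17, adjusted p = 1.65e-07). Its relatives lipl-1 and lipl-2, also among the 11, fell by 1.27 ± 0.37 and 2.53 ± 0.57. The acyl-CoA dehydrogenase gene acdh-1, of propionate breakdown, was at 2.92, 4.96, 2.42 and 1.18 FPKM in ash-2 + hsf-1 and at 12.5, 17, 9.39, 14.3 and 11.4 FPKM in L4440 (-2.09 ± 0.32). In contrast, acs-2, an acyl-CoA synthetase gene of mitochondrial fat oxidation, was at 30.3, 33.1, 43.6 and 50.4 FPKM in ash-2 + hsf-1 and at 9.90, 11.8, 8.48, 7.86 and 12.8 FPKM in L4440 (1.89 ± 0.31, adjusted p = 0.000613). The call of lipl-1 was lost in 8 of the alternatives. The count of falls was 6 without ash-2 + hsf-1 replicate 3, 7 without replicate 4 and 3 without both. Of 142 nuclear hormone receptor genes 1 fell and 1 rose, 0.704% each, below the 5.40% and 3.68% of all genes tested. The fall was that of nhr-114, which in worms protects the germline depending on diet. It was at 6.02, 6.18, 3.34 and 4.43 FPKM in ash-2 + hsf-1 and at 16.3, 25.7, 21.6, 19.7 and 25.6 FPKM in L4440 (-2.04 ± 0.29, adjusted p = 0.000170).

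The methionine cycle supplies the methyl groups used on histones and on phosphatidylcholine. In a joint list of methionine cycle and phosphatidylcholine genes, 6 of 19 tested fell and 0 rose (median -0.40). The phosphoethanolamine methyltransferase gene pmt-2 was at 165, 161, 130 and 116 FPKM in ash-2 + hsf-1, against 278, 271, 301, 271 and 333 FPKM in L4440 (-1.03 ± 0.13, adjusted p = 5.75e-05). Its partner pmt-1 fell by 0.69 ± 0.15. The cystathionine gamma-lyase gene cth-1 was at 8.11, 7.71, 4.16 and 5.81 FPKM in ash-2 + hsf-1 and at 23.6, 24.6, 19.4, 16.8 and 16.6 FPKM in L4440 (-1.60 ± 0.25). The other 3, named to complete the 6, were the S-adenosylmethionine synthetase genes sams-1 and sams-5 and the S-adenosylhomocysteine hydrolase gene ahcy-1. They averaged 72.0 ± 26.4, 3.65 ± 0.872 and 820 ± 71.9 FPKM in ash-2 + hsf-1 and 152 ± 25.5, 7.24 ± 0.439 and 1251 ± 90.1 FPKM in L4440 (-1.15 ± 0.32, -0.92 ± 0.21 and -0.61 ± 0.14). Replicate 3 held the lowest sams-1 value, 33.8 FPKM, and the call of sams-1 was lost in 7 of the alternatives. The count stayed at 5 to 7 with 1 library left out and was 4 without replicates 3 and 4 and 3 when libraries were rescaled by median ratios.

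Outputs of the insulin pathway were called in both directions, 5 higher and 4 lower of 21 (median -0.04). The 5 that rose were the superoxide dismutase gene sod-3 and the pud genes, whose protein products were first found raised in mutants of the insulin receptor daf-2. The gene sod-3 was at 9.17, 8.84, 6.75 and 8.80 FPKM in ash-2 + hsf-1 and at 3.19, 2.61, 2.32, 3.00 and 2.66 FPKM in L4440 (1.45 ± 0.22, adjusted p = 0.000272). The gene pud-3 was at 24.7, 31.9, 25.9 and 14.3 FPKM in ash-2 + hsf-1 and at 2.07, 2.55, 1.24, 1.25 and 1.97 FPKM in L4440 (3.40 ± 0.29), and pud-4 rose by 2.27 ± 0.47. For these 3 genes the groups did not overlap. The near-identical pair pud-1.1 and pud-1.2, which share reads, rose by 1.23 ± 0.29 and 1.24 ± 0.29, with replicate 4 within the L4440 range (44.0 FPKM for pud-1.1, against 36.4 to 57.7 FPKM in L4440). With both clones the level of pud-3 was higher than with hsf-1 RNAi alone, 24.2 ± 7.28 and 0.957 FPKM (4.06, adjusted p = 3.63e-06), and lower than with ash-2 RNAi alone, 24.2 and 63.0 FPKM (-1.35, adjusted p = 0.00526). The 4 that fell were dod-3, the aquaporin gene aqp-1, lea-1 and the glyceraldehyde phosphate dehydrogenase gene gpd-2 (changes of -1.69, -0.93, -0.45 and -0.36). Without replicates 3 and 4 the falls numbered 0, without either alone 3, and the call of gpd-2 was lost in 12 of the alternatives.

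Detoxification genes gave a mixed picture. Of 49 glutathione transferases and targets of the oxidative stress factor SKN-1, 11 fell and 3 rose (median -0.23), and the falls numbered 6 without ash-2 + hsf-1 replicates 3 and 4. The gene gst-20 was at 25.7, 26.7, 28.2 and 21.5 FPKM in ash-2 + hsf-1, against 66.5, 61.5, 77.5, 69.2 and 66.1 FPKM in L4440 (-1.40 ± 0.15, adjusted p = 1.38e-05), and the nitrilase-related gene nit-1 was at 3.00 to 6.30 and 13.0 to 20.4 FPKM (-1.98 ± 0.25). Of 54 cytochrome P450 genes 5 rose (3 without ash-2 + hsf-1 replicate 4) and 3 fell. These are 9.26% and 5.56%, where over all genes tested it was 3.68% and 5.40%, so the falls were near that share. The gene cyp-35A1 rose and was at 3.67, 6.02, 2.91 and 3.17 FPKM in ash-2 + hsf-1 and 0.245 to 0.399 FPKM in L4440 (2.43 ± 0.40). Of 54 UDP-glycosyltransferase genes 5 fell and 1 rose (9.26% and 1.85%), and the falls numbered 1 without ash-2 + hsf-1 replicate 3, 2 without replicate 4 and 0 without both.

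Genes of the cuticle, the collagen coat that the epidermis secretes, were called higher more often than lower. Of 139 cuticle collagens 18 rose and 5 fell, with a median of 0.16. The gene col-93 was at 2447, 2001, 2403 and 2044 FPKM in ash-2 + hsf-1, against 1041, 870, 1033, 859 and 1153 FPKM in L4440 (1.17 ± 0.16, adjusted p = 0.000134). Its neighbour col-94 was at 509, 448, 537 and 519 FPKM in ash-2 + hsf-1 and at 327, 280, 319, 281 and 317 FPKM in L4440 (0.72 ± 0.11). The gene col-101 was at 757, 747, 538 and 317 FPKM in ash-2 + hsf-1 and at 192, 147, 146, 171 and 214 FPKM in L4440 (1.69 ± 0.25), with the weakest rise in replicate 4. The lowest was col-135 (2.16 ± 1.16 and 13.1 ± 5.90 FPKM, -2.37 ± 0.42). Relative to L4440, the mean of the 139 genes was 0.42, 0.32, 0.31 and -0.05 in ash-2 + hsf-1 replicates 1 to 4 and ran from -0.15 to 0.22 in L4440 replicates. The count of rises was 11 without ash-2 + hsf-1 replicate 3 and 21 without replicate 4, and that of falls was 2 without both.

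The collagens separated the animals on both clones from those on either clone alone. In ash-2 + hsf-1, 79 of the 139 were higher and 8 lower than with ash-2 RNAi alone (12.0% and 3.76% of all genes tested). The median difference was 0.95 beside 0.27 over all genes. Relative to hsf-1 RNAi alone 5 were higher and 65 lower (1.28% and 8.42% of all genes tested), a median of -0.86 beside -0.03. Against L4440 the medians of the collagens were 0.16 in ash-2 + hsf-1, -0.74 in ash-2 and 0.97 in hsf-1, all 3 set against the same 5 L4440 libraries. The group on both clones thus stood between the groups on single clones. Genes of the molt and the apical matrix had 4 of 62 higher and 2 lower, or 6.45% and 3.23%, where over all genes tested it was 3.68% and 5.40%. The median of this list was 0.02, and the 2 that fell changed by -1.36 and -0.85. The astacin protease gene nas-3 was at 11.3, 19.4, 10.1 and 8.65 FPKM in ash-2 + hsf-1 and at 0.719, 1.11, 1.44, 1.52 and 2.19 FPKM in L4440 (2.74 ± 0.29, adjusted p = 1.16e-05). The cuticulin gene cut-3 was at 27.6, 28, 12.4 and 6.06 FPKM in ash-2 + hsf-1 and 1.70 to 2.74 FPKM in L4440 (2.61 ± 0.44). Its relative cut-2 was at 107, 93.2, 98.2 and 102 FPKM in ash-2 + hsf-1 and at 52.4, 47.6, 53.6, 48.0 and 41.2 FPKM in L4440 (1.04 ± 0.22, adjusted p = 0.00517). Among 47 hedgehog-related genes, secreted proteins of the epidermis, 4 rose and 0 fell, with changes of 0.65 to 1.07. They were grd-4 (1.07 ± 0.27), grd-3 (0.78 ± 0.17), grl-22 (0.68 ± 0.19) and grd-5 (169 ± 27.2 and 107 ± 13.1 FPKM, 0.65 ± 0.14), and 2 rose without ash-2 + hsf-1 replicate 1. Of 55 genes with glutamine and asparagine-rich repeats, several of which code for matrix of the pharynx, 6 rose and 0 fell, among them pqn-52 (0.65 ± 0.11) and abu-11 (0.96 ± 0.22). Leaving out 1 library gave 2 to 6 rises there, with 2 without replicate 1 and 3 without replicate 3.

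**Figure D4:**
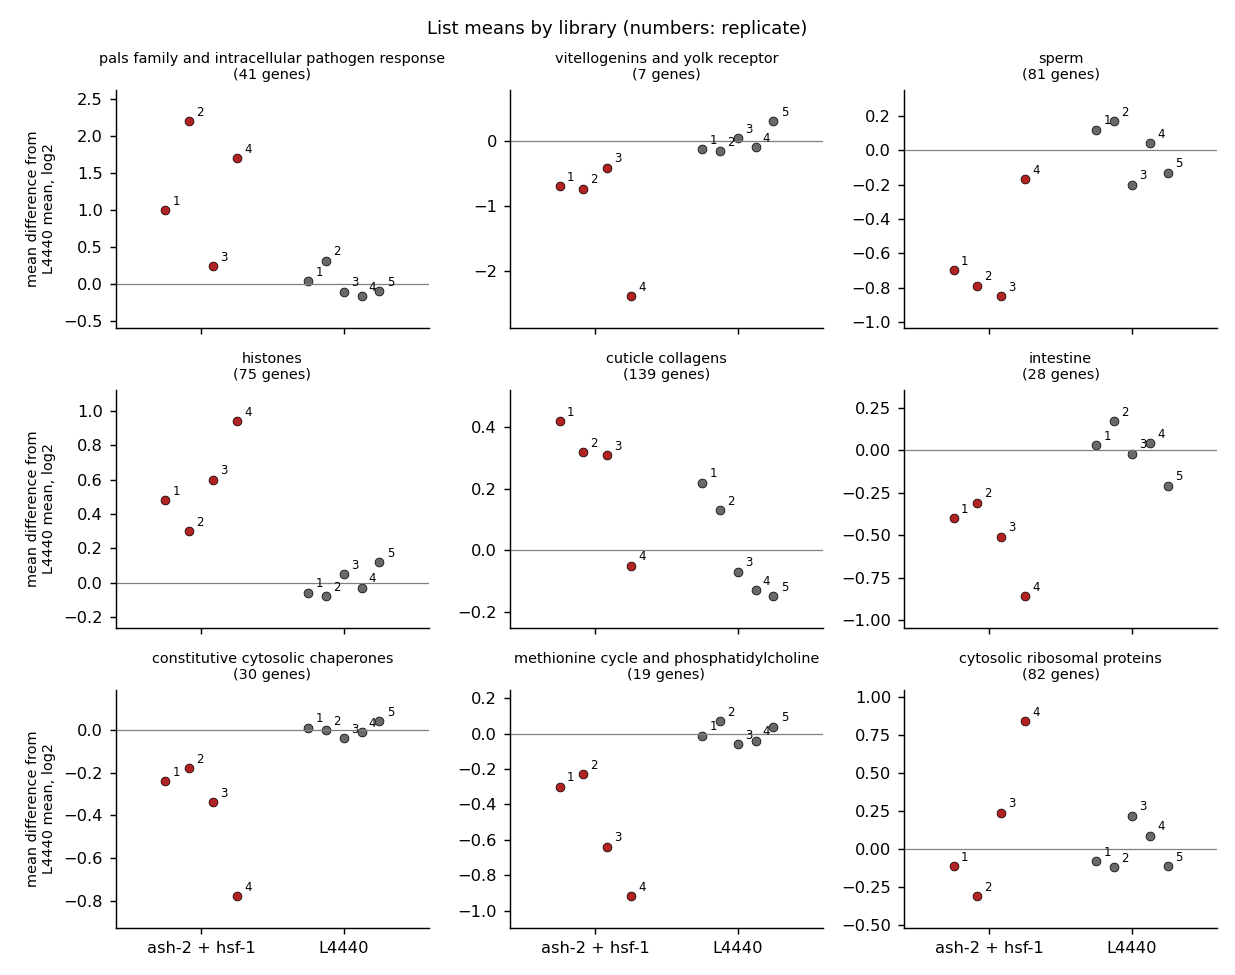
Mean of a list's genes in each library as the difference from the mean of the 5 L4440 libraries, on log2(FPKM + 0.5), for 9 lists; each point is a library and its number is the replicate. Replicate 4 on both clones stands apart for yolk (-2.39), chaperone (-0.78) and ribosomal protein (0.84) genes, and replicate 3 is lowest for the pathogen response (0.24).

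Part of the sperm genes fell relative to the empty vector. Of 81 sperm genes 13 fell and 0 rose, with a median of -0.59. The gene spe-18, needed to build sperm, was at 12.7, 11.2, 12.5 and 13.9 FPKM in ash-2 + hsf-1, against 35.0, 32.0, 30.7, 31.7 and 27.2 FPKM in L4440 (-1.28 ± 0.19, adjusted p = 0.000301). The sperm protein gene ssp-35 was at 12.6, 12.8, 11.9 and 11.7 FPKM in ash-2 + hsf-1 and at 22.9, 24.5, 21.2, 24.8 and 19.6 FPKM in L4440 (-0.86 ± 0.18). The sperm phosphatase gene gsp-3, an example chosen after its values were seen, was at 17.2, 16.6, 17.2 and 21.5 FPKM in ash-2 + hsf-1 and at 34.2 to 37.6 FPKM in L4440 (-0.97 ± 0.24, adjusted p = 0.0140). These groups were tight and did not overlap. The Argonaute genes alg-3 and alg-4, which act in spermatogenesis, fell too, by 1.17 ± 0.21 and 1.19 ± 0.21, from a list of 41 small RNA genes with 2 falls and 1 rise. Those counts are 4.88% and 2.44%, below the 5.40% and 3.68% of all genes tested. The major sperm protein genes, near copies of one another, were less even: msp-77 was at 66.4, 54.5, 74.3 and 114 FPKM in ash-2 + hsf-1 and at 111 to 122 FPKM in L4440 (-0.64 ± 0.25, adjusted p = 0.144). The mean of the list was -0.70, -0.79, -0.85 and -0.17 in ash-2 + hsf-1 replicates 1 to 4 and -0.20 to 0.17 in L4440 replicates, so that replicate 4 lay within the L4440 range. The falls numbered 5 without replicate 3, 13 without replicate 4 and 6 without both, and the median was -0.85 without replicate 4.

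Sperm genes on both clones again lay between the single clones. In ash-2 + hsf-1, 66 of the 81 were higher and 0 lower than with ash-2 RNAi alone (12.0% and 3.76% of all genes tested), with a median difference of 2.16. Relative to hsf-1 RNAi alone 0 were higher and 44 lower (1.28% and 8.42% of all genes tested), with a median of -1.23. The median changes against the shared L4440 libraries were -0.59 in ash-2 + hsf-1, -2.76 in ash-2 and 0.66 in hsf-1. Among the other germline lists, oocyte and eggshell genes (36), meiosis and germ granule genes (28) and embryonic fate genes (16) had 0 calls against L4440, with medians of -0.09, -0.15 and -0.16.

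**Figure D5:**
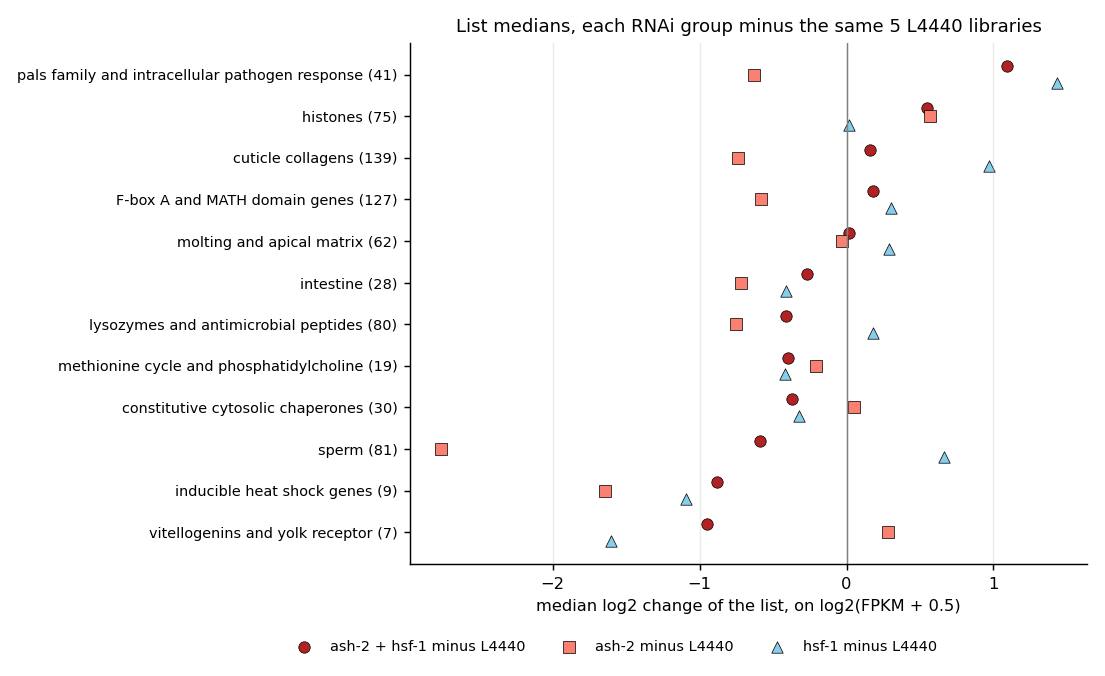
Median change of 12 gene lists against the same 5 L4440 libraries in ash-2 + hsf-1 (circles), ash-2 (squares) and hsf-1 (triangles), on log2(FPKM + 0.5); the number of genes is in brackets. For cuticle collagens and sperm genes the circle lies between the other marks (0.16 between -0.74 and 0.97, and -0.59 between -2.76 and 0.66).

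Histone genes were called higher more often than lower. Of 75 tested histone genes 21 rose and 1 fell, with a median of 0.55. The H2A gene his-12 was at 10.3, 9.76, 12.8 and 12.7 FPKM in ash-2 + hsf-1, against 2.21, 2.15, 2.87, 3.00 and 3.34 FPKM in L4440 (1.89 ± 0.19, adjusted p = 6.68e-06). The H3 gene his-2 was at 5.14, 9.56, 7.23 and 9.90 FPKM in ash-2 + hsf-1 and at 0.661, 0.877, 1.09, 1.48 and 1.82 FPKM in L4440 (2.33 ± 0.29), and the H4 gene his-1, beside it in the genome and named after its values were seen, rose by 2.36 ± 0.32. The groups did not overlap for 25 of the 75 genes, where over all genes tested it was 12.6%. The 1 that fell was his-70 (1.84 ± 0.355 and 4.12 ± 0.872 FPKM, -0.98 ± 0.24), named to complete the count. Many histone genes are identical or nearly so and share reads, and the counts therefore hold fewer independent signals than genes. The mRNA kit captures poly(A) tails, which most messages of replication-dependent histones lack, so these values describe the captured part only. The list mean was 0.48, 0.30, 0.60 and 0.94 in ash-2 + hsf-1 replicates 1 to 4 and -0.08 to 0.12 in L4440 replicates. The rises numbered 17 to 24 with 1 library left out, and the median was 0.37 without replicate 4 and 0.25 without replicates 3 and 4. Against hsf-1 RNAi alone 17 were higher and 2 lower in ash-2 + hsf-1 (1.28% and 8.42% of all genes tested), with a median of 0.60. Against ash-2 RNAi alone 5 were higher and 4 lower (12.0% and 3.76% of all genes tested), with a median of 0.04.

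Of 29 body wall muscle genes, the tissue in which the transgene is driven, 1 rose, the cofilin gene unc-60 (171, 136, 163 and 195 FPKM in ash-2 + hsf-1 and 117, 120, 116, 115 and 101 FPKM in L4440, 0.54 ± 0.12). This count is 3.45% of the list, near the 3.68% of all genes tested that rose. The myosin gene unc-54, to which reads of the transgene could add, was at 331 ± 64.6 FPKM in ash-2 + hsf-1 and 313 ± 29.1 FPKM in L4440 (0.06 ± 0.15, adjusted p = 0.987). Of 26 neuron genes 3 rose and 1 fell, or 11.5% and 3.85%, where over all genes tested it was 3.68% and 5.40%. The fall was that of tbh-1, which makes the enzyme for the transmitter octopamine, at 24.9, 25.1, 14.8 and 9.91 FPKM in ash-2 + hsf-1 and 65.3, 65.4, 52.1, 63.3 and 70.1 FPKM in L4440 (-1.82 ± 0.28, adjusted p = 0.000319). The rises were ric-19 (1.36 ± 0.24), the vesicle transporter gene cat-1 (1.09 ± 0.26) and the synaptobrevin gene snb-1 (0.33 ± 0.10, adjusted p = 0.0464), whose call was lost in 15 of the alternatives. Of 120 neuropeptide and insulin-like genes 2 rose (nlp-39 and nlp-61) and 2 fell (ins-4 and nlp-29), the calls of nlp-61 and nlp-29 being lost in 13 and 11 of the alternatives. Each count is 1.67% of the list, below the 3.68% and 5.40% of all genes tested. The insulin-like gene ins-4 was at 7.33, 10.1, 6.15 and 7.39 FPKM in ash-2 + hsf-1 and at 21.4, 22.4, 20.0, 17.7 and 12.5 FPKM in L4440 (-1.22 ± 0.25). The peptide gene nlp-39 was at 3.05, 3.98, 1.15 and 1.27 FPKM in ash-2 + hsf-1 and listed at 0 in all 5 L4440 libraries (adjusted p = 3.83e-05). Ribosomal protein genes (82) and oxidative phosphorylation genes (52) had 0 calls, but the ribosomal mean was 0.84 in ash-2 + hsf-1 replicate 4 and -0.31 to 0.24 in replicates 1 to 3.

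The design also asks whether animals on both clones differed from all the other groups, and not from the empty vector alone. For each gene the largest of the 3 p-values (against L4440, ash-2 and hsf-1, with 1 sign) was adjusted over all genes. The 2 genes that passed were 0.0153% of those tested, and 101 had an unadjusted p under 0.05. The saposin-like gene spp-9 (chromosome X, 11487784 to 11488203), of a family with antimicrobial members, was at 1.65, 1.57, 3.52 and 6.18 FPKM in ash-2 + hsf-1. It averaged 0.0317 FPKM in ash-2 and 0.127 FPKM in hsf-1, and was listed at 0 in all 5 L4440 libraries (adjusted p = 0.00365). The gene met the filter of 1 FPKM in 4 libraries only through the ash-2 + hsf-1 libraries, the group where it is high. Its p-values are therefore not independent of the filter and give no separate support. The gene F28H7.3 (chromosome V, 10749605 to 10750788) was at 24.3, 26.7, 34.9 and 28.4 FPKM in ash-2 + hsf-1. It averaged 57.7 ± 7.96 FPKM in ash-2, 72.9 ± 7.65 FPKM in hsf-1 and 122 ± 12.0 FPKM in L4440 (adjusted p = 0.0133). Against L4440 it fell by 2.09 ± 0.13. Both were named after their values were seen, and with the 4 libraries of few detected genes left out 0 genes passed.

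The interaction contrast asks whether the change on both clones differed from the sum of the changes on each clone, on the log2 scale. It was called for 14 genes (0.107% of those tested), 2 of them positive (0.0153%) and 12 negative (0.0917%), and 833 had an unadjusted p under 0.05. For F28H7.3 it was -0.26 ± 0.20 (adjusted p = 0.698), so its levels did not depart from that sum beyond the error. For spp-9, which was tested only because its ash-2 + hsf-1 libraries met the filter, it was called positive (adjusted p = 0.034). The cuticulin gene cut-2 was called negative at -2.13 (adjusted p = 0.0138): it averaged 100 ± 5.67 FPKM in ash-2 + hsf-1, 205 FPKM in ash-2, 114 FPKM in hsf-1 and 48.5 ± 4.90 FPKM in L4440. In limma's test its level on both clones was below that on ash-2 alone (-0.93 ± 0.23, adjusted p = 0.00995). It was not called apart from that on hsf-1 alone (-0.16 ± 0.23, adjusted p = 0.832). The count of interaction calls ran from 5 to 10 with 1 of the 9 libraries left out and so moved with single libraries.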

How the data were processed

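Per the labels' protocols, RNA was extracted from frozen animals with TRIzol, and 1 to 5 µg per sample went into an Illumina TruSeq stranded mRNA preparation. What the authors deposited is 1 FPKM value per gene and library. Per the submitters' processing notes, cutadapt, HISAT2, StringTie and DESeq2 were used with genome build WBcel235; the tool behind these values and the versions are not stated there. Of 26786 gene identifiers, 26780 were in the RefSeq gene table, from which coordinates were taken.

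FPKM values were taken as log2(FPKM + 0.5) and fitted in limma 3.58.1 (R 4.3.3; lmFit, eBayes with trend and robust settings) with all 17 libraries in 1 fit, without a replicate block. Calls were made at an adjusted p under 0.05 over 13084 genes. The fit was tested on simulated data in which each gene had 1 SD shared by all groups. That simulation did not cover the unequal spread of the groups or shifts of whole libraries. Summaries used numpy 2.4.6 and pandas 2.3.3 under Python 3.11.15. The targets were compared by an exact permutation test. No 2 libraries were identical. What separates the replicates (cultures, days) is not given in the labels, so p-values measure only the spread between these libraries, which may be technical. Replicate 4 of ash-2 + hsf-1 carries the library number 5.

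The genes named are the targets, the 10 highest and 10 lowest changes among called genes with a symbol, a mean of at least 10 FPKM in the higher group and no overlap between groups, and up to 3 called members of each of 39 lists; the text uses a selection of them. All other genes in the text, among them tissue markers, were chosen after their values were seen. Members and lists were chosen with earlier results of these data known. Of the list entries, 7 matched no gene by the name given and are not reported here. Alternatives were 2 other pseudocounts, 2 other filters, 2 rescalings, other sets of libraries, a covariate for the number of detected genes, other eBayes settings, a replicate block by either number and leaving out each of the 9 libraries.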

Additional observations from a re-analysis of the deposited data

Results flagged for a closer look

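A library was set against the others of its group for each named gene and 9 lists, 280 checks in all, and 23 stood apart by Dixon's criterion; chance alone flags about 1 in 20. Of these, 13 were L4440 replicate 5 and 7 were ash-2 + hsf-1 replicate 4.

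Replicate 5 of L4440 was the lowest of its group for scl-2 (52.3 FPKM, the others 99.7 to 102), clec-10 (15.9, the others 30.7 to 36.8), cpr-1 (736, the others 1122 to 1271), cpr-4 (621, the others 906 to 995), lys-8 (167, the others 269 to 293), pmt-1 (182, the others 211 to 220), nit-1 (13.0, the others 18.8 to 20.4), unc-60 (101, the others 115 to 120) and ttr-6 (75.1, the others 102 to 110). It was the highest for pals-4 (0.993, the others 0.234 to 0.391), vit-1 (642, the others 344 to 382), vit-3 (1084, the others 633 to 758) and pqn-52 (121, the others 104 to 108). For scl-2, clec-10, cpr-1, cpr-4, lys-8, pmt-1, nit-1, pals-4 and pqn-52 it lay towards the ash-2 + hsf-1 side, and for unc-60, ttr-6, vit-1 and vit-3 away from it.

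Replicate 4 of ash-2 + hsf-1 was the lowest of its group for hsp-3 (95.6 FPKM, the others 289 to 311), cpr-6 (78.9, the others 194 to 208), aqp-1 (6.54, the others 12.3 to 12.4) and the mean of the yolk list (-2.39, the others -0.73 to -0.41), and the highest for dpy-30 (318, the others 179 to 193), gsp-3 (21.5, the others 16.6 to 17.2) and clec-45 (8.92, the others 2.66 to 3.71). Replicate 3 of ash-2 + hsf-1 was the highest for dod-19 (338 FPKM, the others 228 to 234) and the lowest for sod-3 (6.75, the others 8.80 to 9.17). L4440 replicate 1 was the lowest of its group for clec-86 (0.849 FPKM, the others 1.34 to 1.48).

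By the test of the interaction, the effect of one clone differed with the other clone for cut-2 (-2.13) and for spp-9 (2.33, a value that depends on the pseudocount, since spp-9 is listed at 0 in L4440). The gene spp-9 met the filter only through its ash-2 + hsf-1 libraries.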

How the results depend on the processing

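Of the 131 genes named with values or in counts, 118 were called, 73 of them under every alternative run, and 0 changed direction while called. Counts of calls moved more, and their balance turned in one case. The 1188 calls were 739 with a filter at 5 FPKM, 1792 after quantile normalization, 2449 with detected genes as a covariate, 683 without ash-2 + hsf-1 replicates 3 and 4, and 853 to 1096 with 1 library left out. The 482 genes higher were 312, 810 and 1109 under the same filter, quantile normalization and covariate, 800 without the 4 libraries of few detected genes, and 388 to 471 with 1 library left out. The 706 genes lower were 427 with that filter, 1340 with the covariate, 272 without replicates 3 and 4, and 448 to 684 with 1 library left out, the lowest without L4440 replicate 2 (448) and L4440 replicate 1 (452). The share of calls that were lower, 59.4%, was 39.8% without replicates 3 and 4, where more genes were called higher than lower. The 14 interaction calls were 9 with a pseudocount of 0.1, 8 without a filter, 78 after quantile normalization, 45 after median-of-ratios scaling, 5 without the few-detected libraries, 196 with the covariate, 5 without replicates 3 and 4, and 5 to 10 with 1 library left out. The 2 genes apart from every group were 1 with the 5 FPKM filter, quantile normalization, median-of-ratios scaling or plain eBayes, 0 without the few-detected libraries, and 1 to 3 with 1 library left out. The causes were not tested.

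The labels do not say whether the replicate numbers pair the samples, and the fit reported used no block. Deviations of same-numbered libraries correlated at 0.201, 0.637, 0.46 and -0.14 by title number. By library number the value for replicate 4 was 0.075, beside its best of 0.076 with L4440 replicate 2. Replicates 1 to 3, but not 4, correlated best with their own number, so a pairing was neither shown nor excluded. With a replicate block by title number, 410 genes were higher and 688 lower, with 7 interaction calls; with a block by library number, 557 and 830. Under these blocks the falls numbered 1 and 6 of 30 cytosolic chaperones and 1 and 2 of 7 yolk genes. The difference of the targets was -7.92 FPKM for ash-2 (-8.95 to -6.40 with 1 library left out) and -20.1 FPKM for hsf-1 (-21.0 to -18.9). Depth is known only as a bounded estimate, so the counting error of genes near 1 FPKM cannot be given.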
